A study of Homo sapiens with 6 samples.

Results

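Keratin transcripts were described in human foreskin fibroblasts (HFF) in which an oncogene was switched on. The keratins covered are KRT7, KRT8, KRT14, KRT15, KRT16, KRT17, KRT18, KRT19, KRT34 and KRT80, 10 genes taken by symbol from the 59050 entries of the deposited table. They were chosen because KRT19 and KRT8 were lower in the treated cells of these same libraries. Their differences between the groups are therefore given as descriptions, with no p-value.

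The treated cells carried the inducible vector pLNC ER:RAS (G12V), in which oncogenic H-RAS is tied to an oestrogen receptor part and responds to 4-hydroxytamoxifen (4-OHT). They received 100 nM 4-OHT and were harvested 1 week later as senescent cells. The comparison libraries are labelled DMSO, and the design text itself gives no other detail for them. The labels of both groups list the same passage, neomycin dose, 1-week harvest and 1 µg of total RNA. Per the labels, the vector was put into cells of about passage 18 by lentiviral infection and carriers were selected with 200 µg/ml neomycin. Each group had 3 libraries of bulk RNA-seq, and nothing in the labels says whether these came from separate cultures, so the spread between them may be technical. Cells without the vector that received 4-OHT were not analysed here, so the effect of the ligand and that of the activated fusion cannot be told apart.

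Keratins are the intermediate filament proteins of epithelia. Each filament is built from pairs of a smaller, acidic type I chain and a larger, basic type II chain, and a chain without a partner is unstable. KRT8 pairs with KRT18 in simple epithelia, where KRT7 and KRT19 also occur. KRT14 and KRT15 belong to the basal layer of stratified epithelia, KRT16 and KRT17 to stressed, wounded or appendage epithelium, and KRT34 to the hair shaft. Fibroblasts build their main filaments from vimentin, and keratin transcripts in cultured fibroblasts are a minor class.

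The libraries summed to between 998367 and 998843 TPM (transcript abundance scaled to a fixed total per library), a unit that corrects for transcript length, so that levels can be compared between genes. Read depth is unknown, and a value listed at 0 may be a failed estimate. Pearson correlations of log2(TPM + 1) over 15272 genes were at least 0.984 within a group and at most 0.933 between groups. HRAS, which counts the introduced and the native transcript together, was at 1281 ± 51.1 TPM in 4-OHT and 935 ± 24.7 TPM in DMSO (SD, n = 3 each). Fibroblast markers were high in both groups. COL1A1 was at 2671 ± 34.2 TPM in 4-OHT and 3044 ± 26.6 in DMSO, and VIM, which encodes vimentin, at 11537 ± 136 in 4-OHT and 10399 ± 262 in DMSO.

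Of the 10 keratins, 8 averaged 1 TPM or more across all 6 libraries and entered the comparison of all genes, made with limma on log2(TPM + 1) with Benjamini-Hochberg adjustment and a threshold of 0.05. KRT8, KRT18, KRT19 and KRT34 were called lower in 4-OHT, KRT17 was called higher, and KRT7, KRT15 and KRT80 were not called. Among all 15272 genes tested, 49.6% were called, 19.8% higher and 29.9% lower. The keratins were picked from this comparison, so their calls, here and below, are descriptions and nothing is read from their share. Their median log2 fold change (4-OHT minus DMSO throughout) was -1.0, against -0.09 over all genes tested. The libraries of the groups did not overlap in 6 of the 8, with 4-OHT above DMSO in 1 and below it in 5. Among all genes tested the groups did not overlap in 59%, with 4-OHT above in 23.8% and below in 35.2%.

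**Figure D1:**
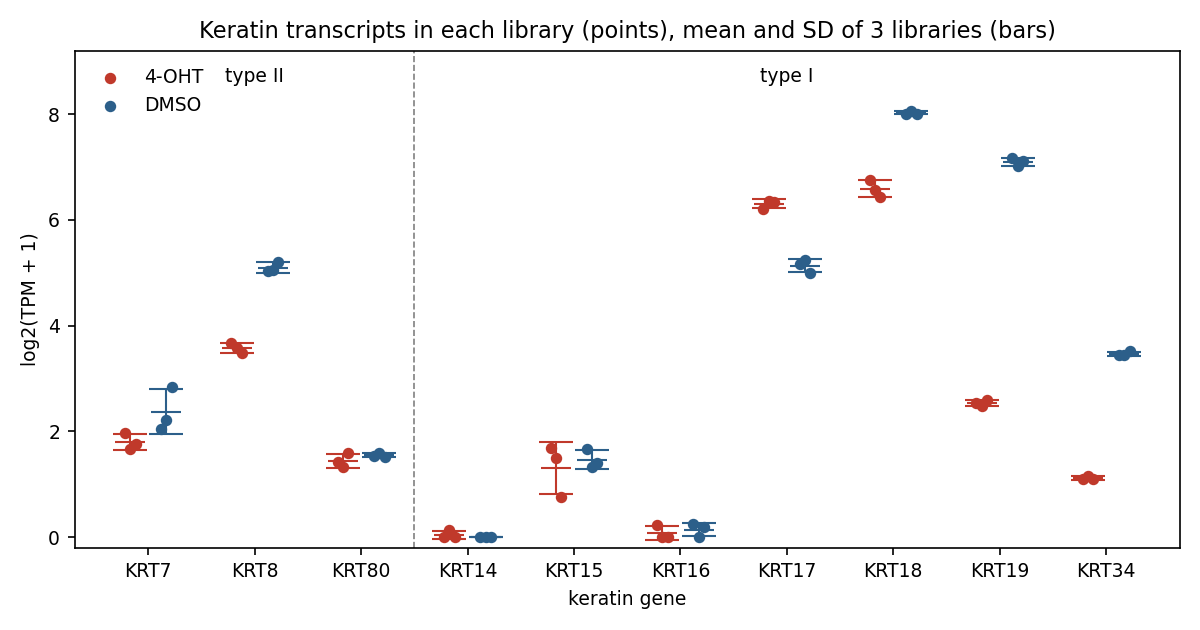
Levels of the 10 keratins as log2(TPM + 1), type II genes left of the dashed line and type I genes right of it. Points are libraries, bars the mean and SD of 3, red 4-OHT and blue DMSO. KRT19 had the widest gap, from 4.61 to 5.07 TPM in 4-OHT against 129 to 143 TPM in DMSO, and KRT17 alone of the genes above 10 TPM in either group lay higher in 4-OHT.

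Among the type II chains, KRT8 was read at 11.7, 10.9 and 10.3 TPM in the 4-OHT libraries, against 31.7, 32.2 and 36.1 TPM in the DMSO libraries. Every 4-OHT library was below every DMSO library, and the mean was 3.04-fold lower (log2 fold change -1.52, SE 0.0832). KRT7, the other type II chain of simple epithelia, was read at 2.91, 2.18 and 2.42 TPM in 4-OHT, against 3.12, 3.68 and 6.21 TPM in DMSO. The groups did not overlap, but 1 DMSO library stood well above the other two. The log2 fold change of -0.57 had an unadjusted 95% interval from -1.10 to -0.037 and was not called. It became -0.33 without DMSO replicate 3 and -0.73, past the threshold, without DMSO replicate 1. KRT80, a type II chain of many epithelia, was read at 1.67, 1.5 and 2.02 TPM in 4-OHT and at 1.92, 2.03 and 1.87 TPM in DMSO. These ranges overlapped, and the interval of its log2 fold change of -0.11 ran from -0.46 to 0.24.

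Among the type I chains of simple epithelia, KRT18, the partner of KRT8, was read at 107, 93.9 and 85.9 TPM in 4-OHT, against 257, 267 and 257 TPM in DMSO. It was the highest keratin in every library of both groups, with a 2.72-fold lower mean in 4-OHT (log2 fold change -1.44, SE 0.0796). The ratio of KRT18 to KRT8 transcripts was 8.72 ± 0.412 in 4-OHT and 7.83 ± 0.639 in DMSO. Its ranges, 8.37 to 9.17 in 4-OHT and 7.11 to 8.30 in DMSO, did not overlap. This order turned when the pseudogene rows were added to both genes (6.22 ± 0.549 in 4-OHT and 6.60 ± 0.492 in DMSO, with overlapping ranges), so no direction is read from the ratio. KRT19, the smallest keratin, which lacks the tail domain of the others, was read at 4.83, 4.61 and 5.07 TPM in 4-OHT, against 143, 129 and 137 TPM in DMSO. Its mean was 28.2-fold lower in 4-OHT (log2 fold change -4.56, SE 0.0674), and among the 15272 genes tested only 1 had a more negative log2 fold change. By level, KRT19 ranked 10714th of the genes tested in 4-OHT and 1209th in DMSO.

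Among the type I chains of stratified and stressed epithelia, KRT17 was read at 72.8, 81.2 and 80.4 TPM in 4-OHT, against 35.0, 36.7 and 31.1 TPM in DMSO. All 4-OHT libraries were above all DMSO libraries, by 2.28-fold in the mean (log2 fold change 1.17, SE 0.0780). KRT15, a chain of basal keratinocytes, was read at 2.23, 1.82 and 0.691 TPM in 4-OHT and at 2.18, 1.5 and 1.64 TPM in DMSO. The groups overlapped, 4-OHT replicate 3 was the lowest of the 6, and the log2 fold change of -0.15 (interval -0.78 to 0.48) turned to 0.13 without that library. KRT16 was at 0.180 TPM in 1 4-OHT library and listed at 0 in the others, and at 0.185, 0 and 0.137 TPM in DMSO. KRT14, the defining type I chain of basal keratinocytes, was at most 0.0932 TPM in 4-OHT and at most 0.00521 TPM in DMSO. KRT14 and KRT16 are closely related to KRT17, with 85.5% and 79.3% identity of the coding sequence, yet stayed under 1 TPM where KRT17 was abundant.

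KRT34, a type I hair keratin, was read at 1.15, 1.23 and 1.14 TPM in 4-OHT, against 9.96, 9.91 and 10.4 TPM in DMSO. The libraries of each group were close together, and the mean was 8.61-fold lower in 4-OHT (log2 fold change -2.35, SE 0.107). Because this low-level gene is damped by the pseudocount, its log2 fold change was -3.0 with a pseudocount of 0.1. Of the 10 keratins, KRT34 and KRT8 have an entry in the RefSeq promoter table used here (GRCh38.p14, 250 bases before to 50 after the transcript start). The KRT34 window (chr17:41382257-41382556, minus strand) is shown because the level of the gene differed between the groups and its 1 GENCODE transcript starts nearby. That GENCODE start, chr17:41382403, is within 100 bases of the RefSeq start and upstream of it. The window is written 5′ to 3′, with the only match to the TATA box letters TATAAA in capitals.
KRT34 promoter: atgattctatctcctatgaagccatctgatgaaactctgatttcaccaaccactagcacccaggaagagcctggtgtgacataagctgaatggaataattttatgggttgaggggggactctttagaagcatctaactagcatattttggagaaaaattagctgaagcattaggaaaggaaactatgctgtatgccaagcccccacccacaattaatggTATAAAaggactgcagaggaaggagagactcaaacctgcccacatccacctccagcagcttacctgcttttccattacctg

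That match begins 31 bases before the RefSeq start, which places it downstream of the GENCODE start. Of the 35116 promoter windows of this length, 11.5% hold TATAAA on either strand. The AP-1 letters TGANTCA (held by 7.71% of windows) and the GC box letters GGGCGG (45.0%) had no match on either strand in the KRT34 window, and the E-box letters CANNTG (68.7%) had 1. In the KRT8 window the TATA, AP-1 and GC box letters had no match and the E-box letters had 3. Only 1 of 17 annotated KRT8 transcripts starts within 100 bases of the start in that window, so it is not printed.

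The order of the keratins by level differed between the groups. In 4-OHT the order was KRT18, KRT17, KRT10, KRT8, KRT19 and KRT7, each with a range of libraries clear of the next, followed by KRT80, KRT15 and KRT34. KRT80 did not differ from KRT15 beyond their spread, nor did KRT15 from KRT34. In DMSO the order was KRT18, KRT19, then KRT10, KRT17 and KRT8, whose neighbours overlapped, then KRT34, KRT7, KRT80 and KRT15, of which the last 2 overlapped. KRT16 and KRT14 were lowest in both groups. KRT10, a type I chain of differentiating keratinocytes that is not among the 10, is included in this order because no other keratin averaged 1 TPM or more.

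Over the 54 keratin genes of the table (28 type I and 26 type II), the summed level was 236 ± 13.0 TPM in 4-OHT and 529 ± 9.13 TPM in DMSO, 2.24-fold lower in 4-OHT. The 10 keratins held 83.4% ± 1.80 of that sum in 4-OHT and 91.3% ± 1.35 in DMSO. KRT17 made up 33.2% ± 3.29 of the keratin total in 4-OHT and 6.47% ± 0.441 in DMSO. KRT19 made up 2.05% ± 0.207 in 4-OHT and 25.8% ± 1.44 in DMSO. KRT18 held 40.5% ± 2.98 in 4-OHT and 49.2% ± 1.00 in DMSO. KRT17 exceeded KRT19 in 4-OHT and KRT19 exceeded KRT17 in DMSO, with a KRT17 to KRT19 ratio of 16.2 ± 1.29 in 4-OHT and 0.252 ± 0.0295 in DMSO.

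**Figure D2:**
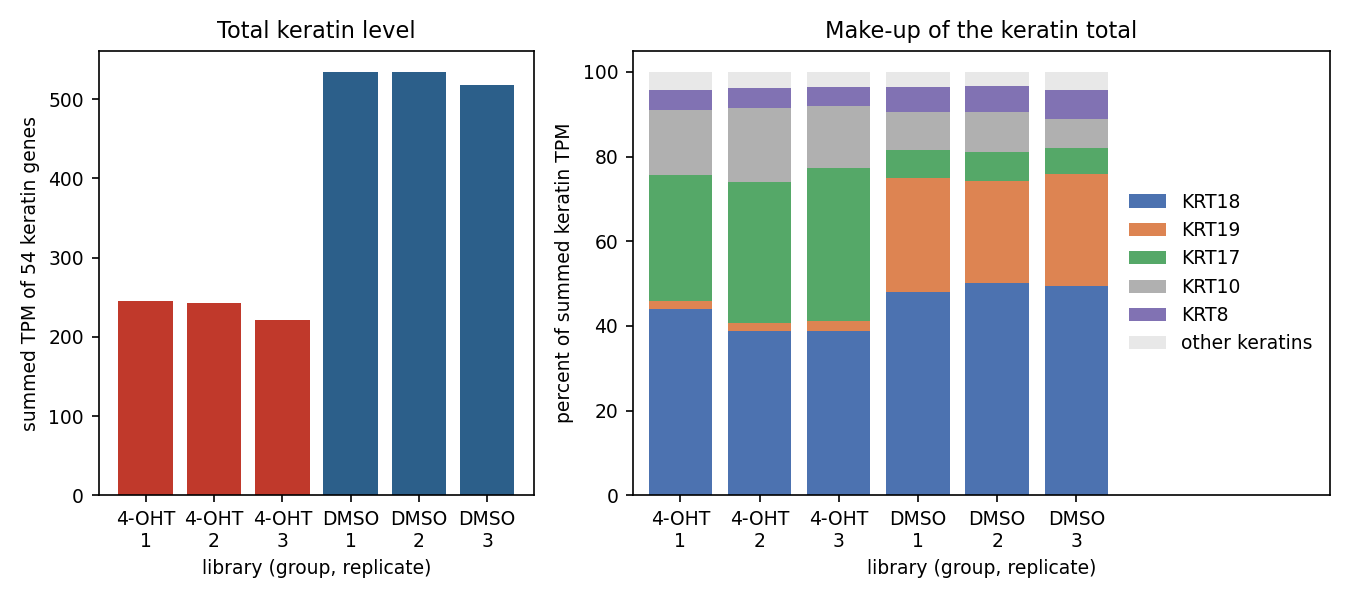
Left, summed TPM of the 54 keratin genes in each library (4-OHT red, DMSO blue). Right, percent of that sum held by each of 5 keratins and by all others. The 3 4-OHT libraries lie between 221 and 245 TPM and the 3 DMSO libraries between 518 and 534 TPM. The KRT19 part nearly vanishes in 4-OHT and the KRT17 part widens.

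Type I transcripts exceeded type II transcripts in every library. All type I genes summed to 219 ± 12 TPM in 4-OHT and 489 ± 13.3 TPM in DMSO, and all type II genes to 17.2 ± 1.04 TPM in 4-OHT and 40.4 ± 4.15 TPM in DMSO. Their ratio was 12.8 ± 0.302 in 4-OHT and 12.2 ± 1.5 in DMSO, with overlapping ranges of 12.5 to 13.1 in 4-OHT and 10.5 to 13.2 in DMSO. Per unit of keratin transcript there were 48.9 ± 2.19 units of VIM transcript in 4-OHT and 19.7 ± 0.290 in DMSO.

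Pseudogene copies may bear on the KRT8 values. The table holds 50 rows named as KRT8 pseudogenes, of which 26 were above 0 in a library, and their sum was 27.6% to 33.9% of gene plus pseudogenes in 4-OHT and 15.9% to 17.5% in DMSO. With these rows added to KRT8 the log2 fold change was -1.30 in place of -1.52. The highest of them, KRT8P12, has 90.5% identity to the KRT8 coding sequence, with a longest identical stretch of 53 bases. For the pseudogene KRT8P14 these values are 92.2% and 82 bases. Whether reads were split between the rows was not tested. The 67 rows of KRT18 pseudogenes held at most 1.79% in 4-OHT and 1.45% in DMSO, and those of KRT17 and KRT19 held less than that. KRT8 and KRT18 also overlap head to head on opposite strands over 525 exonic bases. Whether the authors' counting used the strand is not given in the sources used here.

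The genes sit in the keratin clusters of the genome. KRT80, KRT7, KRT8 and the type I gene KRT18 are on chromosome 12, in a cluster of 27 keratin genes spanning 783.9 kb. The other type I genes are among 28 on chromosome 17, spanning 970.2 kb, a count that includes the keratin-like gene KRT222, which is not among the 54. KRT18 (chr12:52948871-52952901, GRCh38) adjoins KRT8 (chr12:52897187-52949954), and these neighbours were lower by a similar factor, while KRT7, 645 kb from KRT8, and KRT80 beyond it were not called. KRT19 (chr17:41523617-41528308) lies 1.1 kb from KRT15 (chr17:41513743-41522529) and 91.1 kb from KRT17 (chr17:41619441-41624842). So the gene with the largest fall, one that was not called and one that rose are near neighbours on the same strand.

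The chromosome 17 cluster also holds keratin-associated proteins, which cross-link the filaments of hair, and 4 of them reached 1 TPM. They were looked at after their values were seen, so their adjusted p-values are given as descriptions and not as support. KRTAP3-1 averaged under 1 TPM in 4-OHT and KRTAP2-4 under 1 TPM in DMSO, so each met the filter through the other group. KRTAP1-5 was at 6.47, 8.55 and 5.16 TPM in 4-OHT, against 51.3, 48.3 and 49.3 TPM in DMSO (log2 fold change -2.73, limma adjusted p = 9.46e-06), and KRTAP3-1 was lower as well (0.202 ± 0.0625 TPM in 4-OHT, 1.89 ± 0.649 TPM in DMSO, adjusted p = 0.00292). KRTAP2-3 was at 15.4, 16.5 and 17.3 TPM in 4-OHT, against 8.71, 6.51 and 8.86 TPM in DMSO (log2 fold change 0.96, adjusted p = 0.000696). KRTAP2-4 was also called higher (0.83, adjusted p = 0.026), a call lost in 5 of 11 alternative settings (adjusted p 0.0126 to 0.0937). The KRTAP2 genes are close copies of each other, so reads may be split between them.

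**Figure D3:**
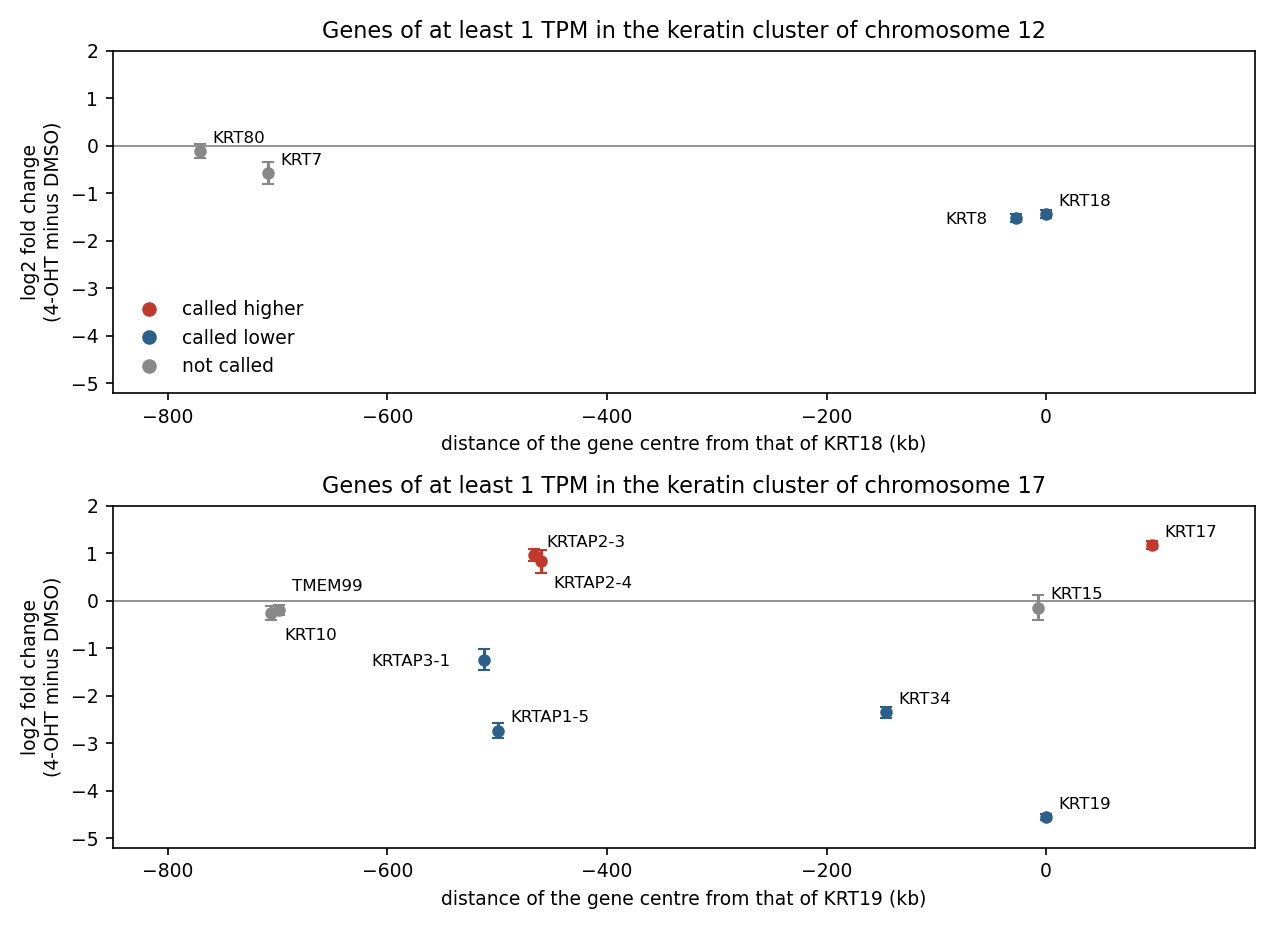
Log2 fold change (4-OHT minus DMSO, bars SE) of every gene of at least 1 TPM inside the keratin clusters of chromosome 12 (top) and chromosome 17 (bottom), by distance in kb from KRT18 or KRT19. On chromosome 17 the cluster holds lower, higher and uncalled genes, with KRT19 at -4.56 and KRT17 at 1.17.

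Of the 44 other keratin genes, only KRT10 was tested. It stood at 37.4, 42.5 and 32.0 TPM in 4-OHT and at 48.5, 51.0 and 35.9 TPM in DMSO. The groups overlapped (log2 fold change -0.26, 95% interval -0.62 to 0.10, adjusted p = 0.199), and a call was gained when DMSO replicate 3 was left out or the replicate number was a block (alternatives gave adjusted p between 0.0293 and 0.472). None of the other 43 had a mean over all 6 libraries above 0.453 TPM, and 9 of the 54 were listed at 0 in all 6 libraries. KRT3, of the cornea, was at 0.861, 0.753 and 0.625 TPM in 4-OHT and at 0.000116, 0 and 0 TPM in DMSO. KRT79 was at 0.788 ± 0.571 TPM in 4-OHT and 0.118 ± 0.0636 in DMSO, without overlap. KRT13 and KRT38, at most 0.130 TPM in any library, lay lower in 4-OHT. These genes were chosen after their values were seen.

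Other intermediate filaments went both ways. Of 11 tested genes outside the keratins 4 were higher and 4 lower (median log2 fold change -0.12, against -0.09 over all genes). The share called was 72.7%, against 49.6% of all genes tested (19.8% higher and 29.9% lower). The lists here and below were chosen with earlier results known, so nothing is read from their shares. NEFL and NEFM, subunits of neurofilaments, rose by 3.48 and 2.87 (NEFL 18.7 ± 1.00 TPM in 4-OHT and 0.845 ± 0.661 in DMSO, adjusted p = 2.74e-05). NEFM was at 8.42 ± 0.382 TPM in 4-OHT and 0.300 ± 0.184 in DMSO. Both genes averaged under 1 TPM in DMSO, so they met the filter through 4-OHT and the adjusted p is a description. LMNB1, of the nuclear lamina, fell to 6.87 ± 1.10 TPM in 4-OHT, against 61.1 ± 5.50 in DMSO (log2 fold change -2.99, adjusted p = 2.3e-06). VIM was called higher by 0.15 (adjusted p = 0.00447), and the call was lost under quantile normalization (0.09, adjusted p = 0.12) and in 2 more of 13 alternatives (adjusted p 0.000397 to 0.262).

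Linkers that anchor keratin filaments at desmosomes, hemidesmosomes and other filaments were tested in 11 of 21 cases, with 3 higher and 2 lower (median 0.39). The share called was 45.5%, near the 49.6% of all genes tested. Under median-of-ratios scaling 7 linkers were higher and 2 lower, and under quantile normalization 7 were higher and 1 lower. DSP, which encodes desmoplakin, the plakin of desmosomes, rose (41.9, 42.7 and 42.7 TPM in 4-OHT, against 16.8, 16.8 and 17.3 TPM in DMSO, log2 fold change 1.27, adjusted p = 3.08e-06). PLEC, which encodes plectin, a cross-linker of filaments, was at 112 ± 5.0 TPM in 4-OHT and 85.5 ± 1.81 in DMSO (0.39, adjusted p = 0.000583). JUP, which encodes plakoglobin, was at 15.5 ± 0.313 TPM in 4-OHT and 12.4 ± 1.94 in DMSO (adjusted p = 0.0521; 0.00832 to 0.144 over the alternatives). The plakophilin PKP4 fell (10.3 ± 0.939 TPM in 4-OHT, 20.8 ± 0.840 in DMSO, adjusted p = 0.00012). Its relative PKP3 was called lower at 0.680 ± 0.615 TPM in 4-OHT and 1.98 ± 0.331 in DMSO (adjusted p = 0.0317), a call lost in 8 of 12 alternatives. PKP3 averaged under 1 TPM in 4-OHT, so it met the filter through DMSO and its adjusted p is a description. Desmoplakin and plectin transcripts were higher in the 4-OHT group, where KRT8 and KRT18 transcripts were lower. A link between these genes was not tested.

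Proteins that bind or organise keratins were tested in 13 of 15 cases, with 2 higher and 4 lower (median -0.13). That is 46.2% called, near the 49.6% of all genes tested. TCHP, which encodes trichoplein, a protein that binds KRT8 and KRT18 filaments, fell to 11.7 ± 0.856 TPM in 4-OHT, against 24.3 ± 0.670 in DMSO (log2 fold change -1.0, adjusted p = 5.06e-05). FBF1, which has been linked to keratin filaments at cell junctions, fell by 0.84 (adjusted p = 0.00212), and the small heat shock protein HSPB1 by 0.75 (482 ± 12.7 TPM in 4-OHT, 810 ± 39.8 in DMSO).

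**Figure D4:**
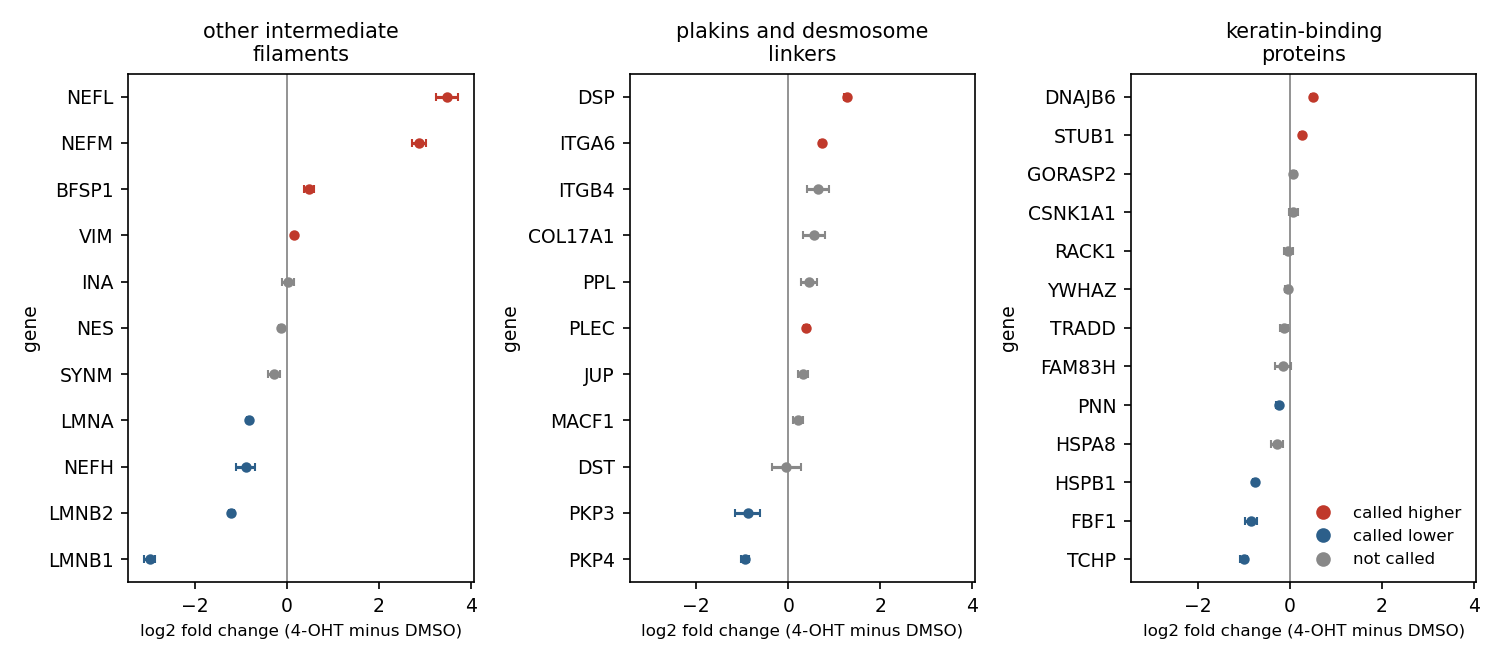
Log2 fold change (4-OHT minus DMSO, bars SE) of the tested genes of 3 lists, red called higher, blue called lower and grey not called. NEFL lies at 3.48 and LMNB1 at -2.99 in the left panel, DSP at 1.27 in the middle and TCHP at -1.0 on the right.

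Transcription regulators known to act on keratin or epithelial genes were tested in 21 of 27 cases, with 7 higher and 9 lower (median 0.13). That is 76.2% called, against 49.6% of all genes tested. Under both scalings 9 regulators were higher and 8 lower. KLF4, a factor of epidermal differentiation that fell furthest in this list, was at 1.42, 1.12 and 1.47 TPM in 4-OHT, against 21.1, 24.1 and 22.3 TPM in DMSO (log2 fold change -3.33, adjusted p = 9.65e-07). EHF, an epithelial ETS factor, was at 3.03 ± 0.310 TPM in 4-OHT and 0.272 ± 0.287 in DMSO (1.69, adjusted p = 0.000563). It met the filter through 4-OHT alone, so its adjusted p is a description. TFAP2C rose to 115 ± 1.92 TPM in 4-OHT, against 40.6 ± 5.06 in DMSO (1.49, adjusted p = 1.1e-05). TP63, which directs the basal keratinocyte programme, was listed at 0 in 5 libraries and at 0.0664 TPM in DMSO replicate 1.

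Repressors of epithelial genes known from the epithelial-to-mesenchymal transition were all tested, and 2 of 8 were higher and 2 lower (median -0.13). That is 50% called, near the 49.6% of all genes tested. SNAI2 rose by 1.02 (191 ± 9.13 TPM in 4-OHT, 93.5 ± 5.96 in DMSO, adjusted p = 1.38e-05), while TWIST1 fell by 1.0 (21.0 ± 1.18 TPM in 4-OHT, 43.0 ± 0.727 in DMSO, adjusted p = 1.78e-05). TWIST2 fell by 0.78 (adjusted p = 6.09e-06).

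Among markers of other cells that could lie among foreskin fibroblasts, several defining ones were at or near 0 and others were not. KRT1 was listed at 0 in every library, KRT5 was at most 0.00694 TPM and CDH1 at most 0.0652 TPM. The 24 keratinocyte markers summed to between 106 and 115 TPM in 4-OHT and between 150 and 163 TPM in DMSO, and 10 were at 0 in all libraries. Of the 5 tested, SBSN, TGM1 and PERP were lower (60% called, against 49.6% of all genes tested). The highest of the list, PERP, which many cell types express, was at 65.6 ± 1.17 TPM in 4-OHT and 99.7 ± 1.92 in DMSO. KRT10, also on this list and not called, was at 37.3 ± 5.26 TPM in 4-OHT and 45.2 ± 8.11 in DMSO. PERP and KRT10 made up most of the sum in both groups. The 20 epithelial markers summed to between 50.9 and 58.7 TPM in 4-OHT and between 41.9 and 45.1 TPM in DMSO. Of 7 tested 3 were higher and 3 lower (85.7% called). The highest of them, CLDN1 (picked with its values known), stood at 29.2 ± 2.71 TPM in 4-OHT and 14.9 ± 0.811 in DMSO. CDH3, which encodes P-cadherin, rose (5.65 ± 0.798 TPM in 4-OHT, 1.08 ± 0.411 in DMSO, adjusted p = 0.000275). LAMA3 and MUC1 fell (log2 fold changes -1.39 and -1.18). EPCAM was at 0.544, 0.502 and 0.753 TPM in 4-OHT and at 1.61, 1.40 and 1.64 TPM in DMSO (adjusted p = 0.0137, and 0.00149 to 0.0445 in the 10 alternatives in which it was tested). EPCAM averaged under 1 TPM in 4-OHT, so it met the filter through DMSO and its adjusted p is a description. In bulk RNA, fewer cells that express a keratin and less keratin RNA per cell cannot be told apart, and the part of epithelial cells in the keratin differences was not tested.

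The 18 fibroblast markers were all tested, with 5 higher and 10 lower (83.3% called, against 49.6% of all genes tested). They summed to between 29361 and 29933 TPM in 4-OHT and between 28663 and 29428 TPM in DMSO. DCN, FAP and TWIST1 fell most (by 1.04, 1.01 and 1.0), COL1A2 fell by 0.62, and PDGFRB rose by 0.71. Of the 8 mesothelial markers 1 was tested, BNC1, at 13.4 ± 0.632 TPM in 4-OHT and 9.55 ± 1.88 in DMSO (adjusted p = 0.0281; lost in 4 of 13 alternatives). The melanocyte and Merkel cell, endothelial and immune cell lists summed to at most 4.10, 3.87 and 67.8 TPM in 4-OHT and 3.98, 2.94 and 91.3 TPM in DMSO. Of their 5 tested genes, PIEZO2 and CD14 were higher and PMEL and TEK lower. PMEL and TEK averaged under 1 TPM in 4-OHT and PIEZO2 in DMSO, so each met the filter through 1 group. No direction is read for endothelial markers from TEK. Among those not tested, TIE1 (1.39 TPM in 4-OHT, 0.147 in DMSO), PECAM1 and KDR lay above DMSO. CLDN5 lay below it, and CDH5, VWF and EMCN overlapped. The call of CD14 was lost in 4 of 12 alternatives (adjusted p up to 0.0902) and that of PMEL in 2 of 10 (up to 0.0563). The highest of these genes, CD68, which is also found outside immune cells and was likewise picked with its values known, stood at 57.4 ± 4.73 TPM in 4-OHT and 77.0 ± 16.6 in DMSO and was not called.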

How the data were processed

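The authors deposited TPM for 59050 gene symbols across 6 libraries. Trim Galore 0.6.6, STAR, StringTie and the build GRCh38 are named, per the submitters' processing notes. No source used here gives the annotation, the strand setting or a scaling between libraries. Values of DMSO replicate 3 are deposited on the same scale but were recorded as a score, since 1 value (MTND5P11) lay below 0 and was set to 0.

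Genes averaging 1 TPM or more entered a 2-sided limma 3.58.1 test (R 4.3.3, variance trend, no covariates) on log2(TPM + 1), with Benjamini-Hochberg adjustment over all genes tested. The fold changes understate those of low genes. Scaling, pseudocount, filter, variance trend, replicate block, pseudogene rows and each library were varied. The test was also run on simulated data with independent noise, which says nothing of shared cultures or of scaling between libraries.

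The keratins and gene lists were chosen with earlier results of these data known. Named genes were the 10 keratins, other keratins of at least 1 TPM, the genes of each list with the largest called changes (up to 3) and a few fixed partners. Positions and coding sequences come from GENCODE 29 (GRCh38), promoters from RefSeq. Identity was computed with Biopython 1.88.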

Additional observations from a re-analysis of the deposited data

How the results depend on the processing

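In 14 alternatives KRT17 was called higher each time (log2 fold change 1.10 to 1.29), and 4 keratins were called lower, or 5 without DMSO replicate 1, where KRT7 passed. KRT19 ranged from -4.79 to -4.43, KRT34 (13 alternatives) from -3.0 to -2.17, KRT8 from -1.60 to -1.30 and KRT18 from -1.53 to -1.32. The signs of KRT15 and KRT80, which were not called, changed under quantile normalization (0.048 and 0.10).

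The balance over all genes depended on scaling. Of the genes called, 60.2% were lower as deposited (3018 higher, 4561 lower), 47% under median-of-ratios scaling (4039 and 3579) and 49.7% under quantile normalization (3649 and 3612). The log2 fold changes shifted upward by a median of 0.11 and 0.13. Leaving out a library gave 2620 to 2755 higher and 3903 to 4180 lower.

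No clear pairing of same-numbered libraries was seen, though 3 libraries per group cannot exclude a shared culture. The deviations of same-numbered libraries from their group means correlated at 0.0475, 0.00549 and 0.00664 over 15272 genes, and not every library correlated best with its own number. With the number as a replicate block, KRT19 was at -4.56, 1 keratin was called higher and 4 lower, and 2819 genes were called higher and 4246 lower. The summed type II keratins among the 10 were at 15.2 TPM in 4-OHT, or 19.8 with pseudogene rows added. Read depth is unknown, so the precision of values near 0 (KRT14, KRT16) cannot be given.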
